A study of Homo sapiens with 12 samples.

Results

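The MYC, MAX and MXD network is a set of transcription factors that share 1 dimerisation partner, and 8 of its genes were followed here through loss of the phosphatase PPM1G: MYC, MYCL, MAX, MXD1, MXD3, MXD4, MNT and MGA. Members were taken by their gene symbols from both deposited count tables, 8 of 56104 gene rows, and all 8 passed the filter on low counts in both assays. The cells were HCT116, a human colorectal carcinoma line at low passage, either control (Ctrl) or PPM1G knockout (KO). For 4sU-seq, which reads nascent RNA, cells took up 4-thiouridine for 10 min at 500 µM, and the labelled RNA was biotinylated and pulled down. RNA-seq of total RNA gave the steady-state levels. Both assays had 3 Ctrl and 3 KO libraries, 12 in all, each with ERCC spike-in RNA. Clonality of the KO cells and the edited site were not given in the sources used here. The labels describe separate cultures only for 4sU-seq, so the p-values of RNA-seq measure the spread between these libraries, which may be technical.

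MYC and MYCL are activators that bind DNA only as dimers with MAX, at the E-box CACGTG, and drive genes of ribosome assembly, nucleotide synthesis and cell cycle entry. The MXD proteins and MNT bind MAX at the same kind of site and recruit the SIN3 corepressor with its histone deacetylases, so that MAX dimers of opposite effect compete for shared targets. MGA, the largest member, joins MAX to the repressive complex PRC1.6. In colorectal cancer cells MYC is a well-known target of WNT and beta-catenin signalling, and MXD genes are typically raised as cells leave the cycle and differentiate.

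Gene counts per library were 79.4 to 102 × 1e6 (4sU-seq) and 31.0 to 42.5 × 1e6 (RNA-seq), so that the floor of 3 counts stood for at most 0.0378 and 0.0969 CPM. Floors cover counting error only. CPM (counts per 1e6 counts) are given after TMM scaling, the normalisation by a trimmed mean that edgeR uses. They measure a gene's share of the RNA in a library, and in these bulk samples fewer expressing cells and less RNA per cell cannot be told apart. PPM1G itself fell from 249.2 ± 19.2 to 115 ± 24.7 CPM in 4sU-seq and from 317 ± 20.5 to 97.0 ± 1.68 CPM in RNA-seq (mean ± SD, n = 3), a log2 change of -1.11 ± 0.17 and -1.71 ± 0.06 (± SE), with adjusted p = 0.00717 and 1.77e-10. One library stood apart: 4sU-seq KO replicate 2 differed from KO replicates 1 and 3 with a chi-square of 303 and 400 per degree of freedom, while replicates 1 and 3 differed from each other by 31.4. RNA-seq KO replicates 1 and 2 were closer to each other than any other pair of one group (1.71 against 10.5 to 19.0 for the other RNA-seq pairs), yet beyond sampling noise, and were kept as 2 libraries. Of 9 epithelial and colonic markers, 6 were tested in RNA-seq, 3 of which fell and CDH1 rose, and the 9 summed to 2599 to 3187 CPM; VIL1, LGALS4 and CDH17 were too low there to be tested. The summed level of 8 leukocyte markers was at most 1.24 CPM in RNA-seq. The 8 markers of fibroblasts and endothelium summed to 4.42 to 6.67 CPM in RNA-seq Ctrl and 10.3 to 11.6 in KO, and to 10.8 to 12.5 and 22.3 to 26.5 CPM in 4sU-seq. COL1A2, DCN and LUM were at 0 in all RNA-seq libraries. All 5 fibroblast and endothelial markers tested in 4sU-seq rose, against 12.6% of all tested genes. The 1 tested in RNA-seq also rose, against 21.5%. A low gene can pass the filter through its KO libraries alone, which favours rises among those tested. The part of these markers in the results below was not tested.

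Promoters were looked at for the network's own recognition site, since several members are known to act on each other. The sequences are the bases before the start site in RefSeq (GRCh38.p14), 5′ to 3′ on the gene's strand, with each E-box CACGTG in capitals; the motif reads the same on both strands. MXD4 and MNT are shown as the members, of those matched, whose promoters hold the motif. SRM and HK2 are shown as examples, with the motif, of MYC targets that fell in RNA-seq. ARRDC4, also with the motif, is a target of the related MLX factors that rose. A further promoter of HK2 lacks the motif, as does the promoter of CAD, a MYC target that fell as well.
MXD4: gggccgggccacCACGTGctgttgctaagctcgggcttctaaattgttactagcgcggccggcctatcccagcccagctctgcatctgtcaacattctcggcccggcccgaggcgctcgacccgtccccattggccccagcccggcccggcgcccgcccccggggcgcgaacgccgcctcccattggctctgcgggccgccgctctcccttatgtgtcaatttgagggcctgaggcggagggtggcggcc
MNT: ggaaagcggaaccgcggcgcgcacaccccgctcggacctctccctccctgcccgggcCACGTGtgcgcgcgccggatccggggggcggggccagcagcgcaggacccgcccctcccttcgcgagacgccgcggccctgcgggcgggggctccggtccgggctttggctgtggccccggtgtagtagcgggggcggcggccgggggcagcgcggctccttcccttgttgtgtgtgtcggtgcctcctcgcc
SRM: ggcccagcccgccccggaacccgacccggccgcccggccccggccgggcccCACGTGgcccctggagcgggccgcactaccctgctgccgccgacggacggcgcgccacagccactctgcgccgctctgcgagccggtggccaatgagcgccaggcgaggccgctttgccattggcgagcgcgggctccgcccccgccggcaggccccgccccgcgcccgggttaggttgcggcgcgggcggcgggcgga
HK2: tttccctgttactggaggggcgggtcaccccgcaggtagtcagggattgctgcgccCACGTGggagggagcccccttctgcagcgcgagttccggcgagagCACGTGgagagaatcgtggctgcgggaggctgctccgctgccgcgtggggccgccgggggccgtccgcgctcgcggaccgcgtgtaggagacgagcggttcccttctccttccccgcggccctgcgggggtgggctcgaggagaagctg
ARRDC4: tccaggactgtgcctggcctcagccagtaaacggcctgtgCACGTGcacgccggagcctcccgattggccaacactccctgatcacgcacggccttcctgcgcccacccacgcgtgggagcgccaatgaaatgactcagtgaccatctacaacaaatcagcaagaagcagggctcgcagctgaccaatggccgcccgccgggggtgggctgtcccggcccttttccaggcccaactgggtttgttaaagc
These stretches lie at chr4:2262110-2262359 (minus strand) for MXD4, chr17:2401061-2401310 (minus) for MNT, chr1:11060019-11060268 (minus) for SRM, chr2:74834920-74835169 (plus) for HK2 and chr15:97960453-97960702 (plus) for ARRDC4. In MXD4 the E-box begins 238 bases before the start site, in MNT 193. Of the 8 members, 7 matched the RefSeq promoters by symbol. MYC did not, so its promoter was not searched. The 7 had 10 promoters of 300 bases (250 before and 50 after the start), and 2 of these 10 held the motif. Among all 35116 promoters of that length 2548 (7.26%) held it. Of 71 promoters of genes listed below as activated by MYC, 28 (39.4%) held it, and of 18 promoters of genes listed as repressed, 3 did. A match is a run of letters and does not show that a factor was bound.

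**Figure D1:**
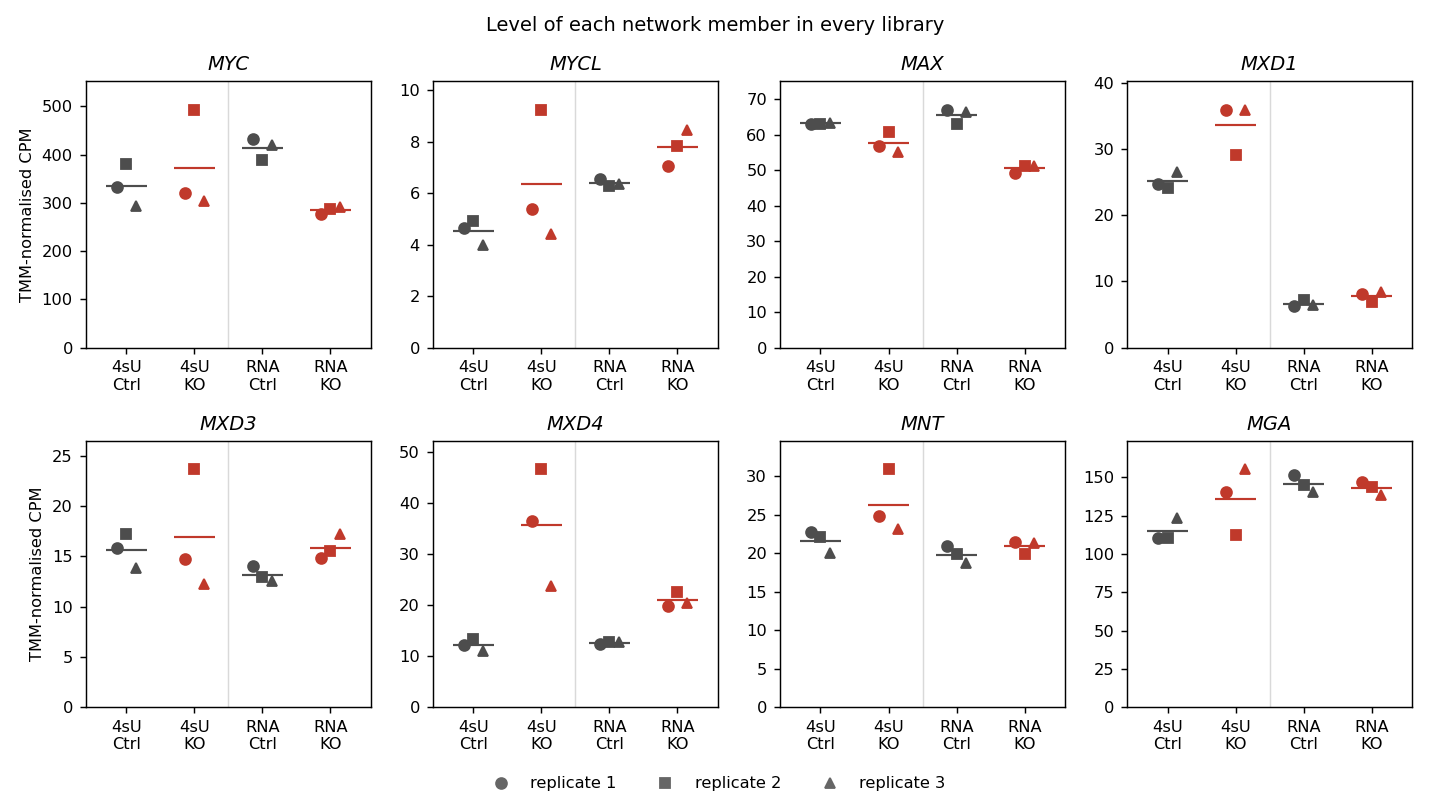
Level of each member in every library, in TMM-normalised CPM on a linear axis that starts at 0 and is scaled per gene; grey is Ctrl, red is KO, symbols mark the replicate and lines the group mean. In RNA-seq the KO libraries of MYC and MAX lie below, and those of MXD4 above, all Ctrl libraries, while in 4sU-seq KO replicate 2 is the highest library of MYC, MYCL, MXD3, MXD4 and MNT.

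Among the activators, MYC fell at steady state. MYC (ENSG00000136997, chr8:127735434-127741434, plus strand, hg38, GENCODE 29) is the founding member and by far the most abundant here. Its RNA-seq level was 432, 389 and 421 CPM in Ctrl replicates 1, 2 and 3 and 276, 287 and 291 CPM in the KO replicates. Every KO library lay below every Ctrl library, and the groups were further apart than the libraries of either. The mean fell by 31.2%, from 414 ± 22.3 to 285 ± 7.99 CPM (SD, n = 3), a log2 change of -0.54 ± 0.06 (95% interval -0.66 to -0.42, adjusted p = 5.03e-06, edgeR quasi-likelihood test). MYC stood among many: 26.8% of the 20415 genes tested in RNA-seq fell, 35.4% of the 13653 protein-coding ones, and in 56.1% of all tested genes the groups did not overlap.

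Nascent MYC RNA gave no such call. In 4sU-seq MYC was at 333, 381 and 294 CPM in Ctrl and 319.9, 493 and 304 in KO replicates 1, 2 and 3. KO replicate 2 exceeded all other libraries, and the other KO libraries lay within the Ctrl range. The log2 change was 0.15 ± 0.21 (95% interval -0.35 to 0.65, adjusted p = 0.664). Without KO replicate 2 it was -0.18 ± 0.12 (adjusted p = 0.24), so its direction turned with this library, and without both 4sU-seq libraries numbered 2 it was -0.04 ± 0.10. Leaving out Ctrl replicate 3 also brought it below 0 (-0.0015). A nascent change of the size seen at steady state lay outside the interval of the fit with all libraries. That sets an interval against an estimate that has its own error. The edgeR test of the difference between assays, given below, did not pass for MYC (adjusted p = 0.123).

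MYCL (ENSG00000116990, chr1:39895426-39902256, minus strand), the paralogue first known from lung cancer, was a minor member whose RNA rose slightly. Its RNA-seq level was 6.56, 6.28 and 6.36 CPM in Ctrl and 7.05, 7.83 and 8.46 in KO. No KO library reached down to the Ctrl range, and the log2 change was 0.28 ± 0.09 (adjusted p = 0.0230, n = 3 libraries per group), where 21.5% of tested genes rose. The call was lost without KO replicate 2 (adjusted p = 0.0779), without KO replicate 3 (0.122), with the trend over gene span removed (0.161), in 1 fit of all 12 libraries (0.458) and, narrowly, with ERCC scaling (0.0501). In 4sU-seq MYCL was at 4.63, 4.93 and 3.97 CPM in Ctrl and 5.37, 9.24 and 4.39 in KO, and only KO replicate 2 was far from the rest. That change, 0.49 ± 0.29, did not pass (adjusted p = 0.286), and was 0.05 without KO replicate 2. Reads of MYCL and of an antisense gene overlap over 226 exonic bases and could not be separated unless strand was counted, which is not given in the sources used here.

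MAX (ENSG00000125952, chr14:65006174-65102695, minus strand), the partner through which the other members bind the E-box, fell at steady state, as MYC did. RNA-seq Ctrl libraries held 67.1, 62.9 and 66.4 CPM and KO libraries 49.3, 51.2 and 51.1. The groups were well apart, and the mean fell by 22.8%, from 65.5 ± 2.23 to 50.6 ± 1.07 CPM, a log2 change of -0.37 ± 0.05 (adjusted p = 7.8e-05). In 4sU-seq MAX was at 63.1, 63.1 and 63.4 CPM in Ctrl and 56.7, 60.9 and 55.1 in KO. The KO libraries were again the lower ones without overlap, a lack of overlap that 38.4% of all genes tested in 4sU-seq showed, but the log2 change of -0.13 ± 0.10 did not pass (adjusted p = 0.399). Without KO replicate 2 it was -0.25 ± 0.08 and passed (adjusted p = 0.0370); with ERCC scaling it was 0.08 ± 0.34, under which the median change over all genes was 0.27 in place of 0.05.

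MXD4 (ENSG00000123933, chr4:2247432-2262294, minus strand), an MXD repressor that is expressed in many resting and differentiated tissues, was the member that changed most and the one that rose in both assays. In 4sU-seq it was at 12.3, 13.4 and 11.1 CPM in Ctrl and 36.5, 46.7 and 23.8 in KO replicates 1, 2 and 3. Even the lowest KO library was well above the highest Ctrl library, although the KO libraries differed widely among themselves. The mean rose from 12.2 ± 1.13 to 35.7 ± 11.4 CPM, 2.91-fold by the fit, a log2 change of 1.54 ± 0.25 (95% interval 0.94 to 2.15, adjusted p = 0.00941). It was the only member called in 4sU-seq, where 12.6% of 21236 tested genes rose and 6.98% fell. The rise was also called without KO replicate 2, at 1.23 ± 0.18 (adjusted p = 0.00152). The call was narrowly lost without Ctrl replicate 1 (1.54 ± 0.33, adjusted p = 0.0582) and without Ctrl replicate 3 (1.41 ± 0.31, adjusted p = 0.0510).

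Steady-state MXD4 rose as well. RNA-seq gave 12.4, 12.8 and 12.7 CPM in Ctrl and 19.9, 22.6 and 20.5 in KO. The Ctrl libraries nearly coincided and all KO libraries lay above them. The fold was 1.66, a log2 change of 0.73 ± 0.07 (95% interval 0.59 to 0.88, adjusted p = 1.55e-06), and it stayed called in each of the 16 alternative fits, between 0.66 and 0.92.

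MXD1 (ENSG00000059728, chr2:69897688-69942945, plus strand), the first MXD repressor described and a marker of differentiating cells, had the higher mean in KO in both assays and passed in neither, nor in 10 of 16 alternative fits of each assay. Its exons share 237 bases with SNRNP27 on the same strand. The 4sU-seq level of MXD1 was 24.8, 24.1 and 26.6 CPM in Ctrl and 35.9, 29.1 and 36.0 in KO, groups that did not overlap. The log2 change was 0.42 ± 0.13 (adjusted p = 0.0699). Without KO replicate 2, here the lowest KO library, it was 0.45 ± 0.09 and passed (adjusted p = 0.00543), as it did with DESeq2 (0.0395), with library size alone (0.0357) and in 1 fit of all 12 libraries (0.0155). RNA-seq gave 6.29, 7.14 and 6.39 CPM in Ctrl and 8.06, 6.91 and 8.36 in KO, with KO replicate 2 inside the Ctrl range, and a log2 change of 0.23 ± 0.10 (adjusted p = 0.0665). Leaving out RNA-seq Ctrl replicate 2 or KO replicate 2 brought it past the threshold (0.31 ± 0.10 and 0.31 ± 0.11, adjusted p = 0.0272 and 0.0343), as did library size alone (0.00469), DESeq2 size factors (0.0490), no filter (0.0472) and a mean of at least 50 counts (0.0263).

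MXD3 (ENSG00000213347, chr5:177301461-177312757, minus strand), an MXD protein linked to proliferating rather than resting cells, rose slightly at steady state, from 14.01, 12.9 and 12.6 CPM in Ctrl to 14.9, 15.5 and 17.2 in KO. The nearest Ctrl and KO libraries were close, and the log2 change was 0.27 ± 0.07 (adjusted p = 0.00962), a call that was lost without KO replicate 3 (0.20 ± 0.08, adjusted p = 0.0755), with the span trend removed (0.0722) and in 1 fit of all 12 libraries (0.423). In 4sU-seq MXD3 was at 15.8, 17.3 and 13.9 CPM in Ctrl and 14.8, 23.7 and 12.2 in KO, and its sign rested on KO replicate 2: the log2 change was 0.11 ± 0.26 with it (adjusted p = 0.802) and -0.28 ± 0.13 without it (adjusted p = 0.105). It also fell below 0 without Ctrl replicate 3 (-0.03). MXD3 is the least certain member to count, since its exons share 926 bases with RAB24 on the same strand and 1158 bases with PRELID1 on the other.

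MNT (ENSG00000070444, chr17:2384060-2401118, minus strand), the broadly expressed antagonist of MYC, did not pass in either assay. RNA-seq gave 20.9, 19.9 and 18.7 CPM in Ctrl and 21.5, 19.9 and 21.4 in KO. These groups overlapped, with a log2 change of 0.07 ± 0.06 (95% interval -0.06 to 0.21, adjusted p = 0.366). In 4sU-seq MNT was at 22.8, 22.1 and 20.0 CPM in Ctrl and 24.8, 30.9 and 23.2 in KO, which did not overlap, with a log2 change of 0.28 ± 0.15 (adjusted p = 0.236) that came to 0.08 ± 0.10 without KO replicate 2. An antisense gene shares 1065 exonic bases with MNT.

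MGA (ENSG00000174197, chr15:41621224-41773081, plus strand), the dual-specificity scaffold with a T-box besides its MAX-binding domain, did not pass in either assay and hardly moved at steady state. Ctrl libraries held 152, 145 and 140.4 CPM and KO libraries 147, 144 and 138 in RNA-seq, which overlapped almost fully. The log2 change was -0.03 ± 0.06 (95% interval -0.15 to 0.09, adjusted p = 0.730). With library size as the only scaling MGA turned to 0.16 ± 0.06 (adjusted p = 0.0422), below the median over all genes under that scaling, 0.19. In 4sU-seq MGA was at 110.4, 111 and 124 CPM in Ctrl and 140.3, 112 and 155 in KO, with KO replicate 2 next to the Ctrl libraries. Its log2 change of 0.24 ± 0.14 (adjusted p = 0.293) passed without that library (0.29 ± 0.10, adjusted p = 0.0375).

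**Figure D2:**
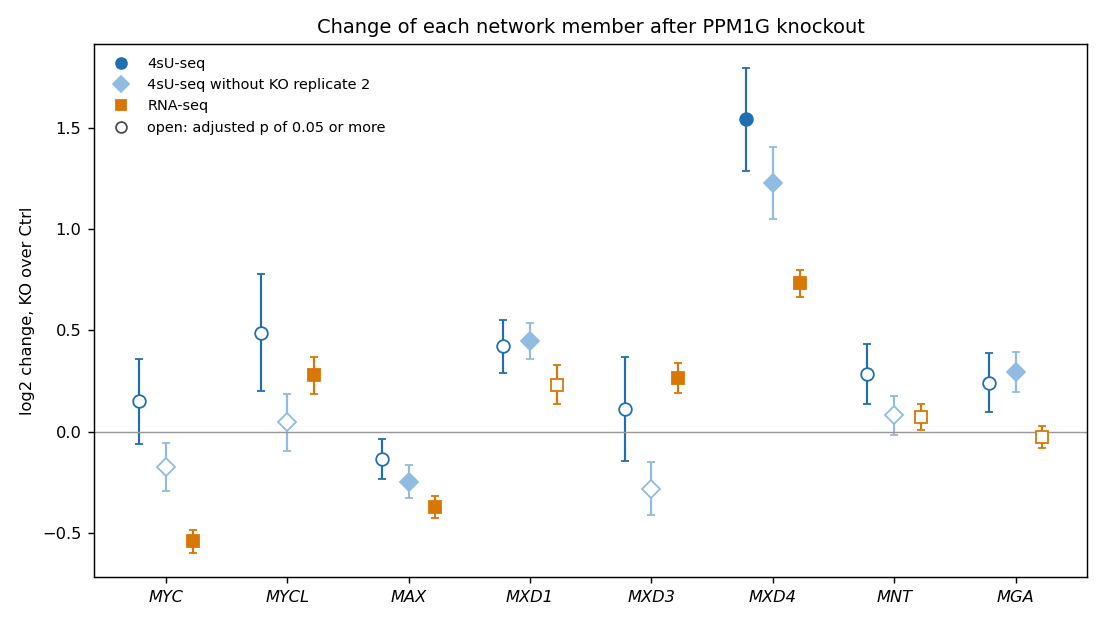
Log2 change of each member, KO over Ctrl, with its standard error, in 4sU-seq, in 4sU-seq without KO replicate 2, and in RNA-seq; filled symbols have an adjusted p under 0.05. MXD4 is filled in all 3 fits, at 1.54, 1.23 and 0.73, MYC and MAX are filled and negative in RNA-seq, and MYC and MXD3 change sign in 4sU-seq when KO replicate 2 is left out.

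Across the members RNA-seq called 5 of 8, with MYC and MAX lower and MXD4, MXD3 and MYCL higher, and 4sU-seq called MXD4. Over all tested genes 48.4% were called in RNA-seq and 19.6% in 4sU-seq. Leaving out 4sU-seq KO replicate 2 brought the 4sU-seq count to 4 (MXD4, MXD1 and MGA higher, MAX lower); this fit called 25.4% of all tested genes higher and 28.4% lower. Leaving out 4sU-seq Ctrl replicate 1 or 3 brought it to 0, and leaving out RNA-seq KO replicate 3 brought the RNA-seq count to 3. The deviation of 4sU-seq KO replicate 2 differed between short and long members: its log2 level minus the mean of the other KO libraries was 0.66 in MYC, 0.93 in MYCL, 0.82 in MXD3, 0.66 in MXD4 and 0.37 in MNT, whose genes span 6.00 to 17.1 kb, against -0.31 in MXD1 (45.3 kb), 0.12 in MAX (96.5 kb) and -0.40 in MGA (152 kb). Ctrl replicate 2 deviated the same way at a smaller size, by 0.20 to 0.28 in MYC, MYCL, MXD3 and MXD4, 0.05 in MNT and slightly below 0 in MXD1 (-0.09), MGA (-0.08) and MAX. With each library's trend over gene span removed, and all libraries kept, the 4sU-seq change was 1.43 ± 0.20 for MXD4 (adjusted p = 0.00334), 0.01 ± 0.15 for MYC and -0.05 ± 0.11 for MGA, and MXD4 was again the member called.

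An interaction term in a joint fit of the 12 libraries asked whether the knockout change of a member differed between nascent and steady-state RNA. None of the 8 members passed after adjustment by edgeR over 15863 genes, 2.5% of which did, while 3 members and 16.3% of these genes had an unadjusted p under 0.05 and MAX alone passed with DESeq2 (adjusted p = 0.0178). For MXD4 the nascent change exceeded the steady-state one by 0.80 ± 0.25 (log2, 95% interval 0.24 to 1.36, adjusted p = 0.133). For MYC the difference was 0.68 ± 0.21 (0.22 to 1.14, adjusted p = 0.123), and for MAX it was 0.24 ± 0.09 (adjusted p = 0.230). Without 4sU-seq KO replicate 2 MYC (0.47 ± 0.13, adjusted p = 0.0175), MXD4 (0.60 ± 0.20, 0.0406), MGA (0.43 ± 0.10, 0.00839) and MXD3 (-0.45 ± 0.15, 0.0493) passed, in a fit that called 27.5% of 15885 genes. Without that library the nascent and steady-state changes, side by side, were -0.18 and -0.54 for MYC, 0.29 and -0.03 for MGA, and -0.28 and 0.27 for MXD3. Without 4sU-seq KO replicate 3 the count was 1, MXD4 (1.03 ± 0.16, adjusted p = 0.0113). With the span trend removed and all libraries kept, MYC (0.73 ± 0.13, adjusted p = 0.0118) and MXD4 (0.86 ± 0.20, 0.0374) passed. Both also passed in edgeR with the replicate number added as a block. They were then at 0.66 ± 0.11 (adjusted p = 0.0206) and 0.77 ± 0.16 (0.0392), in a fit that called 657 of 15863 genes.

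The ratio of nascent to steady-state level set MXD1 apart among the members. In Ctrl its 4sU-seq CPM exceeded its RNA-seq CPM by 1.93 on the log2 scale, at percentile 84.6 of 15856 genes, whose median was 0.23. The other 7 members lay between -0.50 (MYCL) and 0.25 (MXD3). In KO the ratio was 0.39 for MYC, against -0.30 in Ctrl, and 0.76 for MXD4, against -0.05 in Ctrl. These ratios compare separately scaled libraries and are a description. MXD1 shares 237 exonic bases with SNRNP27 on the same strand, and the part of such reads in its ratio was not tested.

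Per length, MYC exceeded every other member. Steady-state levels per kb of annotated exons in RNA-seq Ctrl were 138 ± 7.44 CPM per kb for MYC, 14.8 ± 0.502 for MAX and 8.25 ± 0.316 for MGA (SD, n = 3). Then followed MXD3 at 2.55 ± 0.145, MNT at 2.27 ± 0.127, MXD4 at 1.79 ± 0.0311, MYCL at 1.26 ± 0.0291 and MXD1 at 1.04 ± 0.0733. In Ctrl no 2 neighbours in this order overlapped in their libraries. That covers the spread between libraries only. The divisor is the union of all annotated exons, for example 7.06 kb for MXD4 and 8.73 kb for MNT. Which transcripts were expressed was not examined, and MXD3 shares exonic bases with RAB24, so the order of members at close levels is uncertain. In KO MYC was at 94.9 ± 2.66, MAX at 11.4 ± 0.243 and MGA at 8.11 ± 0.252 CPM per kb. MXD4, at 2.98 ± 0.204, moved above MNT (2.39 ± 0.102) and overlapped with MXD3 (3.08 ± 0.235). MYCL and MXD1 stayed at the low end, at 1.54 ± 0.140 and 1.22 ± 0.121.

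**Figure D3:**
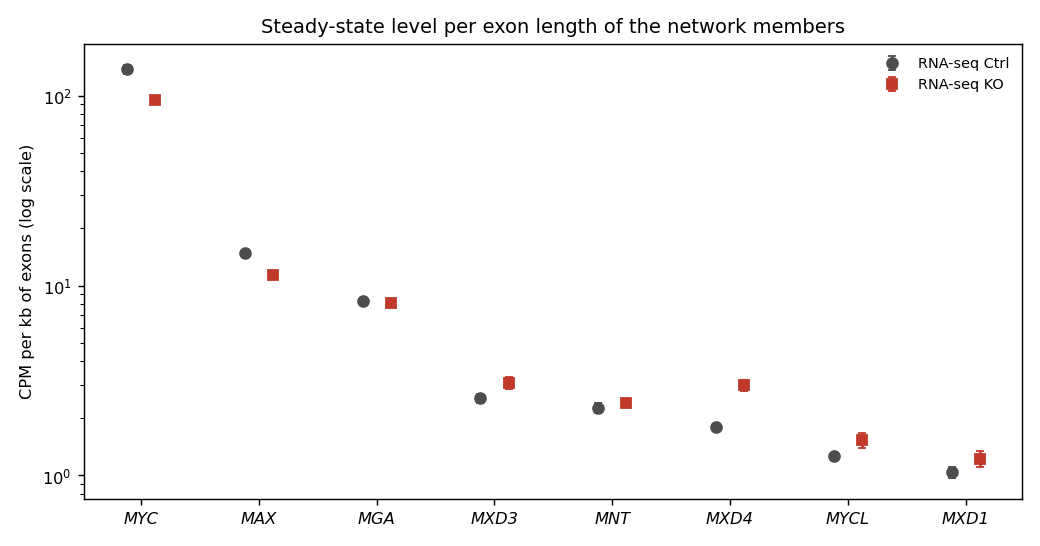
RNA-seq level of each member per kb of exons, on a log axis, as mean and SD of 3 libraries, with genes ordered by Ctrl. MYC lies at 138 in Ctrl and 94.9 in KO, and MXD4 moves from 1.79 to 2.98, past MNT.

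Because MYC and the repressors compete for MAX, the MYC level was set against the summed CPM of MXD1, MXD3, MXD4 and MNT in each library. In RNA-seq this ratio was 8.06, 7.38 and 8.35 in Ctrl and 4.29, 4.42 and 4.32 in KO. The KO libraries were nearly alike and lay far below the Ctrl libraries, with means of 7.93 ± 0.50 and 4.34 ± 0.0667 (SD, n = 3). In 4sU-seq it was 4.40, 4.96 and 4.10 in Ctrl and 2.86, 3.79 and 3.19 in KO, without overlap, and here KO replicate 2 was the KO library nearest to Ctrl. The repressor sum was 52.2 ± 1.66 CPM in Ctrl and 65.6 ± 1.62 in KO in RNA-seq, and 74.6 ± 2.74 and 113 ± 17.6 CPM in 4sU-seq. MXD4 made up 24.2 ± 1.07% of that sum in RNA-seq Ctrl and 32.1 ± 2.44% in KO, and 16.4 ± 0.956% and 31.1 ± 5.54% in 4sU-seq. MXI1, a further MXD repressor described below, is no member and is not in this sum. With it the ratio was 4.24 ± 0.26 in Ctrl and 2.41 ± 0.0412 in KO in RNA-seq, still apart, and 2.73 ± 0.47 and 1.78 ± 0.634 in 4sU-seq, where KO replicate 2 (2.51) then overlapped with Ctrl. The share of MXD4 was then 12.9 ± 0.236% and 17.8 ± 1.40% in RNA-seq. These ratios are given without a test, as they combine members already described, and they are of RNA, not of protein.

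**Figure D4:**
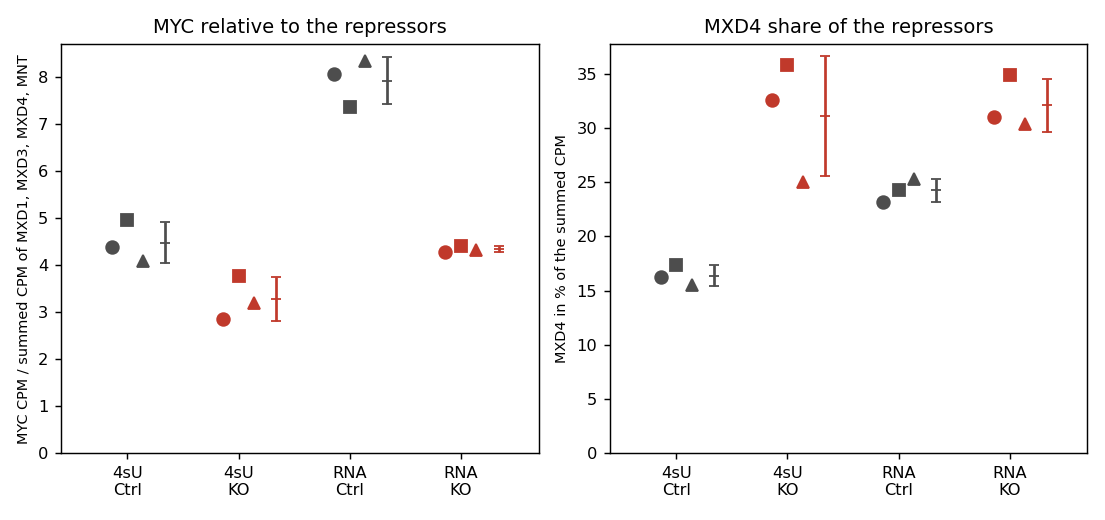
Left, MYC CPM divided by the summed CPM of MXD1, MXD3, MXD4 and MNT; right, MXD4 in percent of that sum; points are libraries (symbols mark replicates 1, 2 and 3 as circle, square and triangle), bars are mean and SD, and both axes start at 0. In RNA-seq the ratio is 7.38 to 8.35 in Ctrl and 4.29 to 4.42 in KO.

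The 3 genes whose pattern over the 12 libraries was most like that of MYC were TPBG (Pearson r = 0.991), SEZ6L2 (0.984) and CDC42EP1 (0.981), among 7732 genes and with log2 CPM centred within each assay. Like MYC they were lower at steady state, with log2 changes of -0.50, -0.59 and -0.46 in RNA-seq, and not called in 4sU-seq, at 0.14, 0.14 and 0.13. The genes were chosen by this likeness, which includes the change from Ctrl to KO, so changes like those of MYC follow from the choice. The libraries also share their depth and, for 4sU-seq, the deviating KO replicate 2, so these values are descriptive.

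Of the other genes of the extended network, MXI1, the remaining MXD repressor, rose in both assays. Its 4sU-seq level was 45.3, 42.9 and 59.3 CPM in Ctrl and 115, 66.3 and 119 in KO, a log2 change of 1.03 ± 0.26 (adjusted p = 0.0363), and each KO library exceeded each Ctrl library. That call was lost when Ctrl replicate 1, 2 or 3 or KO replicate 1 or 3 was left out (adjusted p 0.0729 to 0.147). In RNA-seq MXI1 rose from 45.6 ± 1.22 to 52.7 ± 2.56 CPM (0.21 ± 0.06, adjusted p = 0.00697), not passing without KO replicate 3 (0.0600). MLX, the MAX-like partner of the glucose-responsive factors, fell in RNA-seq (-0.52 ± 0.06, adjusted p = 1.04e-05), and MLXIPL, one of those factors, rose (0.78 ± 0.10, adjusted p = 1.96e-05). MYCN had no count in any library. ARRDC4, a target of the MLX arm whose promoter is shown above, rose 2.90-fold in 4sU-seq (1.53 ± 0.15, adjusted p = 0.00164) and 1.67-fold in RNA-seq (0.74 ± 0.09, adjusted p = 2.61e-05), a difference between assays of 0.80 ± 0.17 (adjusted p = 0.0397). TXNIP, the other gene listed as a target of that arm, was not tested in either assay, and its promoters lacked the motif.

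Genes known as activated by MYC were mostly lower at steady state, where 26.8% of all tested genes and 35.4% of the protein-coding ones fell. In RNA-seq 18 of 20 nucleolar genes fell (median log2 change -0.41, against 0.00 for all genes), among them NOP2 (-0.67 ± 0.06), RRP12 (-0.67 ± 0.06) and BOP1 (-0.64 ± 0.05), which act in ribosome assembly, while GNL3, encoding nucleostemin, rose (0.95 ± 0.06). Of 22 genes of nucleotide, polyamine and energy metabolism 16 fell (median -0.24), including HK2 (-0.72 ± 0.05), a hexokinase, CAD (-0.72 ± 0.05), which starts pyrimidine synthesis, and SRM (-0.60 ± 0.06), spermidine synthase, and MTHFD1 rose (0.24 ± 0.05). Of 19 tested cell cycle and growth genes 13 fell (median -0.24) and TERT rose. In 4sU-seq 2 of 19, 4 of 22 and 2 of 16 fell (medians -0.36, -0.30 and -0.34, against 0.05 for all genes, of which 6.98% fell), among them NPM1, POLR1B, HK2, ATIC and CDC25A. Without KO replicate 2 these counts were 15, 17 and 15, in a fit that called 28.4% of all tested genes lower. Without any other single library they were 0 to 2, 0 to 1 and 0 to 2. Those fits called from 268 (of 21720) to 739 (of 21537) genes lower. The RNA-seq counts also moved with the scaling and with the fit. With ERCC scaling 9 metabolic and 8 cell cycle genes fell, and 2731 of all 20415 tested genes. The fit of all 12 libraries gives both assays 1 estimate of spread per gene. There 8 nucleolar, 6 metabolic and 2 cell cycle genes fell, and 2126 of all 26664 tested genes. Genes known as repressed by MYC went both ways: of 15 tested in RNA-seq 5 rose, with SESN3 (2.08 ± 0.10) and NDRG2 (1.22 ± 0.09) first, and 5 fell, with THBS1 (-1.42 ± 0.06) first, against 21.5% and 26.8% of all tested genes. Of 13 tested in 4sU-seq 5 rose and 1 fell, against 12.6% and 6.98% of all tested genes. Without a single library other than KO replicate 2, 1 to 4 rose, in fits that called from 1054 (of 21720) to 2045 (of 21537) genes higher. NOP16, EIF4A1, HSPE1, PHB and SESN3 were listed at 0 in every 4sU-seq library although RNA-seq counted them, and were not tested there.

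**Figure D5:**
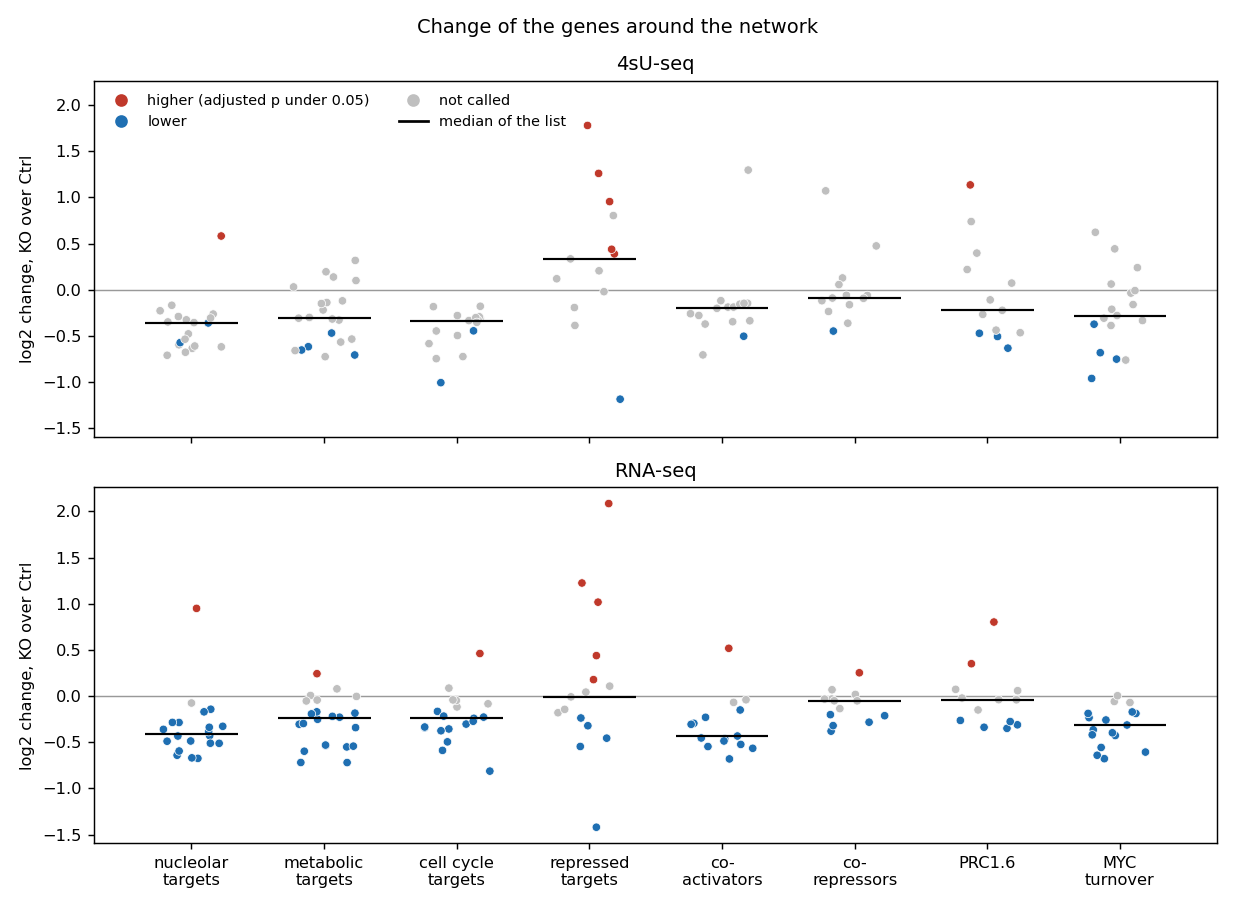
Log2 change, KO over Ctrl, of each tested gene of the lists around the network in 4sU-seq (top) and RNA-seq (bottom); red and blue points passed the test, lines are list medians and horizontal scatter has no meaning. In RNA-seq the 3 lists of activated targets have medians of -0.41, -0.24 and -0.24, and the repressed targets have points on both sides.

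Among the partners of the members, in RNA-seq 12 of 15 MYC coactivators fell (median -0.43), against 35.4% of protein-coding genes, led by SUPT5H (-0.68 ± 0.06), EP400 (-0.55 ± 0.07) and HCFC1 (-0.52 ± 0.06), and CDC73 rose; 5 coactivators fell in the fit of all 12 libraries. Of 17 regulators of MYC protein turnover 14 fell (median -0.31; 8 with ERCC scaling), with AURKA (-0.68 ± 0.06), which shields MYC proteins from degradation, and SKP2 (-0.56 ± 0.06), a ubiquitin ligase subunit, also lower in 4sU-seq (-0.96 ± 0.15 and -0.75 ± 0.09). Of 13 SIN3 and NCOR corepressor genes 5 fell and 1 rose in RNA-seq, with SIN3A at -0.32 ± 0.06, and of 13 PRC1.6 genes, the complex of MGA, 5 fell and 2 rose, TFDP2 most (0.80 ± 0.06), counts near the share of all protein-coding genes that fell; with ERCC scaling 1 gene of each of these lists fell. In 4sU-seq 1 of 15 coactivators (RUVBL1), 1 of 13 corepressors (RBBP4), 3 of 13 PRC1.6 genes and 4 of 17 turnover genes fell and TFDP2 rose. Over all genes tested in 4sU-seq 6.98% fell and 12.6% rose. Without KO replicate 2 the counts lower were 14, 7, 7 and 11, in a fit that called 28.4% of all tested genes lower. Of the 29 genes named by rule from all these lists in 4sU-seq, 23 lost the call when 1 of Ctrl replicates 1 to 3 or KO replicate 1 or 3 was left out (adjusted p 0.0509 to 0.188); SKP2, AURKA, CASC8, THBS1, NDRG1 and ARRDC4 did not. In RNA-seq 2 of 40 did, MXI1 and HDAC1.

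Among 9 listed genes of the 8q24 region that holds MYC, most of those tested rose. Their distances to MYC and their overlaps with each other were not examined. As for the markers above, a low gene can pass the filter through its KO libraries alone, which favours rises among those tested. The shares of all genes set beside the counts below do not adjust for how low a gene is. CASC8 rose in 4sU-seq (2.26 ± 0.13, adjusted p = 0.000311) and RNA-seq (1.34 ± 0.09, adjusted p = 7.28e-08), and CCAT1, a transcript from a MYC enhancer region, rose in both (2.02 ± 0.34 and 1.13 ± 0.08). In 4sU-seq 5 of 6 tested genes of this group rose, against 12.6% of all tested genes. That count was 1 to 3 without a single library other than KO replicate 2, in fits that called from 1054 (of 21720) to 2045 (of 21537) genes higher. It was 1 with ERCC scaling, which called 672 of 21236 genes higher. PVT1, the long noncoding gene next to MYC, fell in 4sU-seq (-0.35 ± 0.07, adjusted p = 0.0211). In RNA-seq 6 of 8 rose, against 21.5% of all (3 with a mean of at least 50 counts). There PVT1 was at -0.02 ± 0.06 (adjusted p = 0.826) and TMEM75 at 0.04.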

How the data were processed

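HCT116 libraries (3 Ctrl and 3 PPM1G KO per assay) were analysed from 2 tables of raw gene counts deposited by the authors. The submitters' processing notes name FastQC 0.11.2, HISAT2 2.1.0, SAMtools 1.3, featureCounts and the build hg38; the strand setting is not given in the sources used here. ERCC rows stayed out of the library sizes. The filter was filterByExpr (minimum count 10) and the scaling TMM. KO was set against Ctrl within each assay with edgeR 4.0.16 (quasi-likelihood F test, two-sided, R 4.3.3), with Benjamini-Hochberg adjustment over all genes tested and a threshold of 0.05. The SE equals the log2 change over the root of F. The difference between assays was an interaction term. The fits were tested on simulated data. GENCODE 29 gave positions and exon lengths, and RefSeq the promoters.

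The members and the 14 lists were chosen with earlier results of these data known. Named genes are the members, PPM1G, up to 4 called genes of smallest p per list and assay (all where 5 or fewer were called), and the 3 genes most like MYC; TERT, CDC73 and, for RNA-seq, MTHFD1 were named after their values were seen. Alternatives were DESeq2 1.42.0 and its size factors, ERCC scaling, library size, other filters, TMM over all libraries, 1 fit of all libraries, a replicate block and leaving out each library. Chosen after seeing the data were a fit without both 4sU-seq libraries numbered 2, one with each library's span trend removed, one with RNA-seq KO replicates 1 and 2 added up, and MXI1 in the repressor sum.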

Additional observations from a re-analysis of the deposited data

Results flagged for a closer look

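The knockout change differed between nascent and steady-state RNA by the interaction test (edgeR, adjusted p under 0.05) in 7 of 138 tested entries of the lists around the network, in 1 of 8 cell type markers, CDH1, and in no member, against 2.5% of all 15863 genes. Over all genes 397 passed, against 7 with ERCC scaling and 86 to 4364 leaving out 1 library. Whether the genes named here passed in those fits was not examined. The noncoding gene CASC8 of the 8q24 region rose more in 4sU-seq (2.26) than in RNA-seq (1.34), a log2 difference of 0.93 ± 0.17 (adjusted p = 0.0185). The stress-responsive gene NDRG1 gave 1.26 and 0.18, a difference of 1.08 ± 0.18 (adjusted p = 0.0121), and the growth-arrest gene GADD45A 0.44 and -0.32, a difference of 0.76 ± 0.11 (adjusted p = 0.00664). ARRDC4 differed by 0.80 (adjusted p = 0.0397). The epithelial marker CDH1, a cadherin gene, gave 1.03 and 0.34, a difference of 0.68 (adjusted p = 0.0112). The nascent change was the lower one for MTHFD1, of folate metabolism (-0.65 and 0.24, a difference of -0.90, adjusted p = 0.00596), for the phosphatase gene CDC25A (-1.01 and -0.30, a difference of -0.71, adjusted p = 0.0388) and for PRPS2, of nucleotide synthesis (-0.47 and 0.08, a difference of -0.55, adjusted p = 0.0446).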

How the results depend on the processing

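MYC, MAX and MXD4 kept their RNA-seq call in all 16 alternatives. The count of members called in 4sU-seq, 1, was 2 with library size alone, with the replicate block, with DESeq2's Wald test and in 1 fit of all 12 libraries, 3 without both libraries numbered 2, and 0 to 4 leaving out 1 library (0 without Ctrl replicate 1 or 3, 4 without KO replicate 2). In RNA-seq the count of 5 was 8 with library size alone, 3 with the gene span trend removed and in 1 fit of all libraries, and 3 to 6 leaving out 1 library. The fit of all libraries gave MYCL and MXD3 nearly the same RNA-seq changes with a larger SE (0.28 ± 0.22 and 0.26 ± 0.20, against ± 0.09 and ± 0.07 in the main fit). For the difference between assays the count of 0 was 2 with the replicate block and with the span trend removed, 1 with DESeq2's Wald test, 3 without both 4sU-seq libraries numbered 2, and 0 to 4 leaving out 1 library. The log2 change of the MYC to repressor ratio in RNA-seq was -0.87, -1.001 without MNT in the sum and -0.81 with MXI1 added. Signs turned in 4sU-seq for MAX (0.081 with ERCC scaling), MXD3 (-0.019 with the span trend removed, -0.17 without both libraries 2, -0.28 to 0.30 leaving out 1 library), MGA (-0.054, span trend removed) and MYC (-0.043 without both libraries 2, -0.18 to 0.28 leaving out 1 library). In RNA-seq MGA turned to 0.053 with ERCC scaling, 0.16 with library size alone and 0.042 with a mean of at least 50 counts, and ran from -0.049 to 0.048 leaving out 1 library. The difference between assays turned for MYCL (-0.059 without both libraries 2, -0.13 to 0.41 leaving out 1 library) and MXD3 (-0.45 to 0.020 leaving out 1 library). The cause was not tested. Over all genes 2684 rose and 1482 fell in 4sU-seq, against 672 and 44 with ERCC scaling, 3100 and 858 with library size alone and 2493 and 3104 with the span trend removed; in RNA-seq 4398 and 5473, against 4372 and 2731, 7439 and 2817, and 3379 and 6275. Same-numbered Ctrl and KO libraries deviated together unevenly (r of -0.07, 0.71 and 0.70 in 4sU-seq, -0.04, 0.16 and 0.23 in RNA-seq), not every library correlated best with its own number, and the replicate block called 6907 genes in 4sU-seq against 4166, with 2 members, 5 members in RNA-seq, and 2 for the difference, MYC (adjusted p = 0.0206) and MXD4 (0.0392). The least counted member, MYCL, had 196 counts in its lowest library.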
